A study of Homo sapiens with 12 samples.

Results

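The KIM-1 hairpin was studied here in cells that also carried a hairpin against VHL. For this, 3 RNA sequencing samples of HK-2 cells with both hairpins (group shVHL61-KIM1A1) were compared with 3 samples with the VHL hairpin alone (shVHL61). These are 6 of the 12 samples of the series, chosen by their labels and not by any measured value. HK-2 is an immortalised line of human kidney proximal tubule epithelial cells. Both groups carry the VHL hairpin, shVHL61, so that lowered VHL is shared, and the group with both hairpins also carries KIM1A1, directed against KIM-1. The other 6 samples are 3 labelled Luc976 and 3 with the KIM-1 hairpin alone (shKIM-1). No dose, time, passage, clone or delivery of the hairpins is given in the labels, nor whether samples of one group were grown as separate cultures. The p-values therefore reflect how much these samples vary, and that variation may be technical. Of 26506 genes in the table, 14230 had enough counts to be tested.

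KIM-1 is the protein of the gene HAVCR1, a membrane receptor that proximal tubule cells make in large amounts after injury and that binds phosphatidylserine on dying cells and oxidised lipids. VHL is the part of a ubiquitin ligase that recognises hydroxylated hypoxia-inducible factors (HIF) and marks them for breakdown, so that cells without it keep HIF at normal oxygen. HIF in turn switches on genes of glycolysis, acid and gas handling, iron and matrix, and loss of VHL is the founding lesion of clear cell kidney cancer, which arises from the proximal tubule.

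Levels are given as CPM, counts scaled to 1000000 per library after TMM normalisation, for the samples numbered 1, 2 and 3 in that order, first with the VHL hairpin alone and then with both hairpins. A gene passed when its adjusted p in edgeR's quasi-likelihood test, Benjamini-Hochberg adjusted over all genes tested, was under 0.05. The libraries of these 6 samples held 16500939 to 21089708 counts. HAVCR1 stood at 132, 152 and 146 CPM with the VHL hairpin and 99, 80.8 and 71.3 CPM with both, and the groups did not overlap (log2 fold change -0.78, SE 0.10, adjusted p = 1.80e-05). That is 1.71-fold lower with both hairpins. VHL stood at 39.3, 37.3 and 37.8 CPM with the VHL hairpin and 43.3, 38.2 and 43.2 CPM with both, so the groups overlapped, and the difference did not pass (log2 fold change 0.13, SE 0.07, adjusted p = 0.131). Its mean in the Luc976 samples was 53.2 CPM, above all 6 samples compared here. HIF1A and EPAS1, the genes of the oxygen-controlled subunits HIF-1 alpha and HIF-2 alpha, moved little. HIF1A stood at 1039.9, 1180.1 and 1168 CPM with the VHL hairpin and 1455, 1281 and 1210.0 CPM with both and rose slightly (log2 fold change 0.22, SE 0.08, adjusted p = 0.0447). It no longer passed without shVHL61 sample 1, 2 or 3 (adjusted p = 0.174, 0.0523 and 0.0659) or without shVHL61-KIM1A1 sample 1 or 2 (adjusted p = 0.200 and 0.0676). EPAS1 stood at 425, 403 and 411 CPM with the VHL hairpin and 414, 394 and 404 CPM with both and did not pass (log2 fold change -0.03, SE 0.05, adjusted p = 0.67).

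Of 14230 genes, 6055 differed in mRNA between the groups (42.6%), 3020 higher with both hairpins (21.2%) and 3035 lower (21.3%). All samples with a KIM-1 hairpin carry the same one. Lower HAVCR1, other effects of that hairpin and differences between the cultures therefore cannot be told apart. At least a 2-fold difference was reached by 679 genes (4.77%), 381 of the genes that rose (2.68%) and 298 of those that fell (2.09%). The samples of the groups did not overlap for 7467 genes (52.5%). With calls this common (a gene can stand in several of the groups below), each gene group below is read against those shares and against the median over all genes of 0.01 on the log2 scale. In bulk RNA, fewer cells of one kind and less mRNA per cell cannot be told apart. The libraries were also cut into sets by the sign of the main axis of their deviations from the group mean. Each group held both sets by construction. The sets differed in how genes of high and low GC content deviated. Set A held shVHL61 sample 1 and shVHL61-KIM1A1 samples 2 and 3, and set B the other 3. The sets were drawn from the main axis of these deviations in the expression values and from no label. Of the genes that passed, 6051 of 6055 had the same sign within both sets, as had all 679 of at least 2-fold. These genes had passed on the same 6 samples, so agreement in sign was largely built in and is no independent check. Of the genes named below as having risen or fallen, DUSP8 and EGFL7 had overlapping groups and the others did not overlap.

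**Figure D1:**
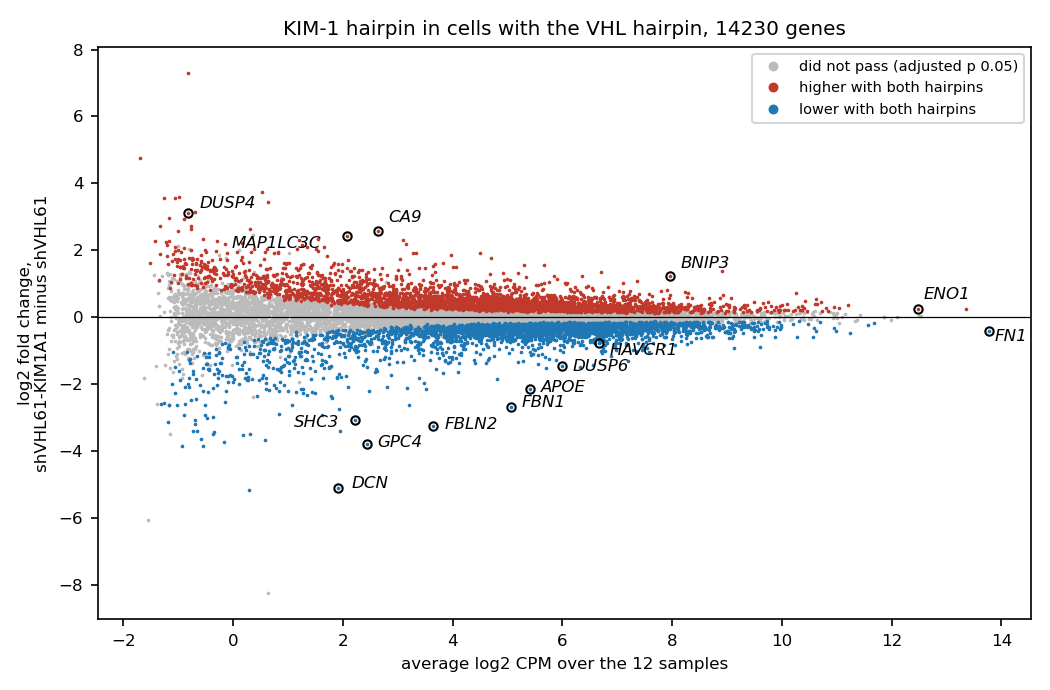
Log2 fold change of the samples with both hairpins over those with the VHL hairpin alone (vertical) against the average log2 CPM over the 12 samples (horizontal), 1 point per gene, coloured by whether it passed an adjusted p of 0.05. Circles mark genes named in the text, from DCN at -5.12 to DUSP4 at 3.10.

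**Figure D2:**
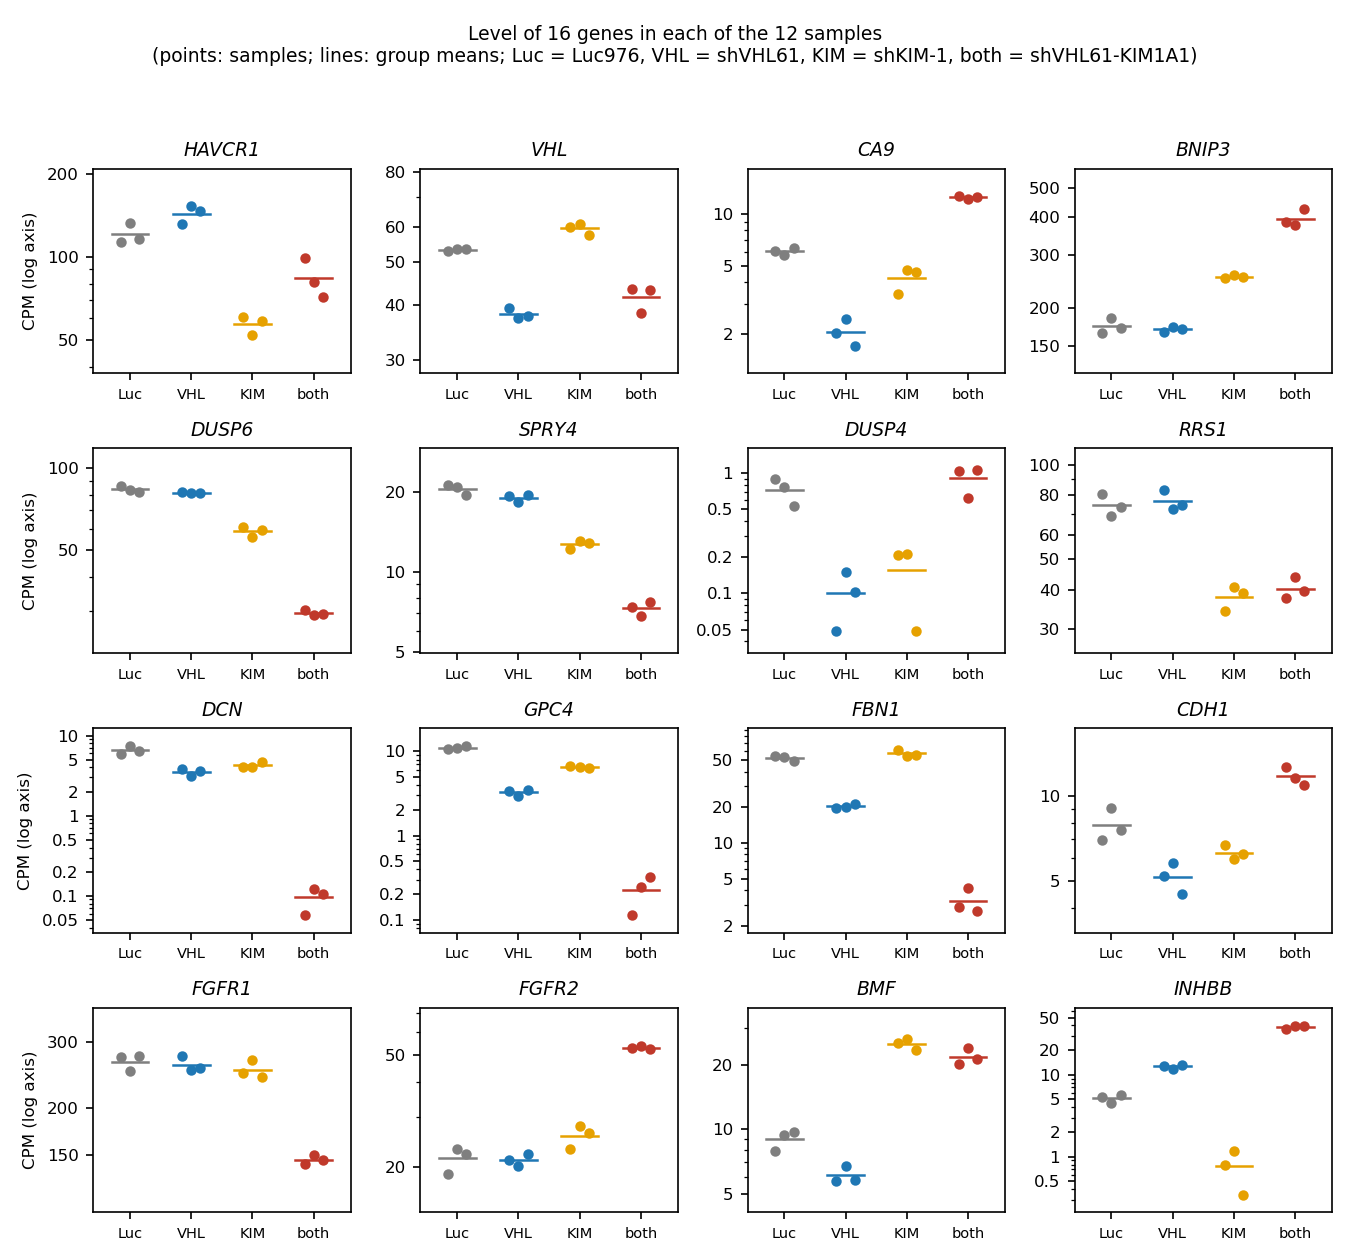
CPM of 16 genes in each of the 12 samples, on log axes, with a line at each group mean. Points of one colour are the 3 samples of a group. In the DCN panel the samples with both hairpins lie between 0.0574 and 0.123 CPM and those with the VHL hairpin alone between 3.11 and 3.84 CPM.

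Targets of HIF rose as a group. Of 49 listed HIF targets, 3 of them also counted with the glycolysis genes below, 41 rose and 2 fell, against 21.2% and 21.3% of all genes, with a median log2 fold change of 0.61. In 38 of the 49 the mean of the cells with both hairpins was the highest of the 4 groups, which held for 32.8% of all genes. CA9, the membrane carbonic anhydrase that acidifies the space around hypoxic cells, stood at 2.04, 2.46 and 1.71 CPM with the VHL hairpin and 12.7, 12.2 and 12.5 CPM with both (log2 fold change 2.59, SE 0.14, adjusted p = 2.51e-09). All 3 samples with both hairpins were above the other 9, since CA9 averaged 6.08 CPM in Luc976 and 4.26 CPM in shKIM-1. BNIP3, a mitochondrial receptor for mitophagy, stood at 166, 174 and 170.4 CPM with the VHL hairpin and 385, 375 and 424 CPM with both (log2 fold change 1.21, SE 0.06, adjusted p = 6.61e-10). Its mean in Luc976 was 175 CPM, close to that with the VHL hairpin alone, 170.1 CPM. NDRG1, a stress-responsive gene of differentiation, stood at 68.5, 71 and 69.3 CPM with the VHL hairpin and 173, 180.3 and 184 CPM with both, a 2.57-fold rise (log2 fold change 1.36, SE 0.06, adjusted p = 5.01e-10).

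Other HIF targets that rose covered several tasks. PPFIA4, a liprin of cell contacts, went from 11.2, 10.1 and 11.1 CPM to 42.4, 38.2 and 42.3 CPM (log2 fold change 1.92, SE 0.09, adjusted p = 5.01e-10). BHLHE41, a transcriptional repressor of the circadian clock, rose 2.83-fold (log2 fold change 1.5, SE 0.09, adjusted p = 5.01e-09), and EFNA1, an ephrin ligand, rose 2.77-fold (log2 fold change 1.47, SE 0.10, adjusted p = 1.29e-08). ADM, the vasodilator adrenomedullin, went from 28.4, 27.3 and 23.7 CPM to 59.9, 67.4 and 69.5 CPM (log2 fold change 1.31, SE 0.09, adjusted p = 1.24e-08). P4HA1 makes hydroxyproline in collagen, and it rose 2.12-fold (log2 fold change 1.08, SE 0.08, adjusted p = 5.04e-08). EGLN3, a HIF prolyl hydroxylase that HIF itself induces, rose 1.86-fold (log2 fold change 0.89, SE 0.07, adjusted p = 1.12e-07). VEGFA, the main angiogenic factor, rose by little: 233, 227 and 225 CPM with the VHL hairpin and 273, 265 and 276 CPM with both (log2 fold change 0.25, SE 0.06, adjusted p = 0.00194). Not all targets followed. ANGPTL4, an inhibitor of lipoprotein lipase, stood at 14.1, 14.3 and 14.9 CPM with the VHL hairpin and 3.96, 5.42 and 5.52 CPM with both and fell (log2 fold change -1.54, SE 0.15, adjusted p = 8.01e-07). The same held for CA12, a second membrane carbonic anhydrase, at 171, 179 and 177 CPM with the VHL hairpin and 100.2, 99 and 103 CPM with both (log2 fold change -0.80, SE 0.05, adjusted p = 6.85e-09), so these carbonic anhydrases moved in opposite directions.

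The sequences before the start of 5 of the risen targets are shown because they hold the core letters of the HIF response element, ACGTG or GCGTG. They were read on both strands of the RefSeq promoter windows (GRCh38.p14, from 250 bases before to 50 after each gene's first listed start), and capitals mark the core letters on either strand, where matches to the strands can overlap.
CA9: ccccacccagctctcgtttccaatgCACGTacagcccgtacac
PPFIA4: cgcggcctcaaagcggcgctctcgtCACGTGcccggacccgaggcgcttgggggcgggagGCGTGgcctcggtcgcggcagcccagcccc
BHLHE41: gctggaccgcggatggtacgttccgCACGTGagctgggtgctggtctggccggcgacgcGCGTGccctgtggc
PFKFB4: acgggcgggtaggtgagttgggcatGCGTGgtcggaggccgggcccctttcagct
BNIP3: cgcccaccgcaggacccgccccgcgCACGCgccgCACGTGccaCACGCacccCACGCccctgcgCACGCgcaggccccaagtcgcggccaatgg
The CA9 stretch is chr9:35673885-35673927 (plus strand), 43 to 1 bases before the start. The PPFIA4 stretch is chr1:203026347-203026436 (plus strand), 144 to 55 bases before the start. The BHLHE41 stretch is chr12:26125038-26125110 (minus strand), 73 to 1 bases before the start. The PFKFB4 stretch is chr3:48556940-48556994 (minus strand), 191 to 137 bases before the start. The BNIP3 stretch is chr10:131981998-131982091 (minus strand), 168 to 75 bases before the start.
The letters are common. They occurred in 31 of 37 (83.8%) windows of HIF targets, in 17 of 25 (68%) of glycolysis genes, in 29 of 33 (87.9%) of the ribosome biogenesis genes described below, which fell, and in 6647 of 10550 (63%) of all tested genes with a window. Over all genes in the RefSeq table the share was 13213 of 27305 (48.4%). The windows of MAP1LC3C, EGLN3, INHBB and HAVCR1 did not hold them, nor did that of RORA, another HIF target that rose. A match is a description of letters and no measurement of binding.

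Transcripts of glucose transport and glycolysis rose more often than they fell. Of 29 genes of glucose transport and glycolysis, 19 rose and 1 fell (median 0.27). PDK1, PFKFB3 and PFKFB4 stood in this list and among the HIF targets, and all 3 rose. ENO1, the enolase common to most cells, rose by less (log2 fold change 0.23, SE 0.06, adjusted p = 0.00367). PGK1, which makes the first ATP of glycolysis, stood at 1032, 1053 and 1056 CPM with the VHL hairpin and 1677, 1751 and 1751 CPM with both (log2 fold change 0.72, SE 0.05, adjusted p = 1.55e-08). LDHA turns pyruvate into lactate, and it stood at 1192, 1329 and 1288 CPM with the VHL hairpin and 1783, 1776 and 1758 CPM with both (log2 fold change 0.48, SE 0.05, adjusted p = 3.09e-06). PFKFB4, which sets the signal that drives phosphofructokinase, rose 2.33-fold (log2 fold change 1.22, SE 0.07, adjusted p = 3.97e-09), and PDK1, which shuts pyruvate out of mitochondria, rose 1.93-fold (log2 fold change 0.95, SE 0.09, adjusted p = 7.11e-07). The glucose transporters SLC2A1 and SLC2A3 rose by 0.25 and 0.52 on the log2 scale (adjusted p = 0.00497 and 4.60e-06). HK2, the hexokinase that opens the pathway, stood at 93, 87.8 and 92.6 CPM with the VHL hairpin and 91.3, 90.2 and 86 CPM with both and did not pass (log2 fold change -0.03, SE 0.05, adjusted p = 0.665). The fall was in SLC16A1, a lactate transporter (log2 fold change -0.26, SE 0.05, adjusted p = 0.000682). Subunits of the mitochondrial respiratory chain also rose, 41 of 75 against 1 that fell, with a median of 0.20. These are short genes, and with the trend of fold change on gene length removed the median was 0.07 and the counts were 16 higher and 4 lower.

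Among genes of autophagy and of the lysosome, more rose than fell, and most did not pass. Of 44 autophagy genes 20 rose and 1 fell, and of 55 lysosomal genes 22 rose and 3 fell (medians 0.20 and 0.13). The other 23 and 30 did not pass, and the count of lysosomal rises was 14 without sample 3 of either group. MAP1LC3C, an LC3 protein that coats autophagosomes, stood at 1.9, 2.56 and 2.28 CPM with the VHL hairpin and 12.6, 10.5 and 13.1 CPM with both (log2 fold change 2.43, SE 0.17, adjusted p = 3.06e-08). PINK1, the kinase that marks damaged mitochondria, stood at 80.3, 72.6 and 70.1 CPM with the VHL hairpin and 126, 143 and 146 CPM with both (log2 fold change 0.90, SE 0.07, adjusted p = 9.78e-08). BNIP3L, a second mitophagy receptor, rose 1.74-fold (log2 fold change 0.80, SE 0.08, adjusted p = 7.33e-07). GABARAP, of the same protein family as MAP1LC3C, rose from 128, 128 and 128 CPM to 186, 201 and 209 CPM (log2 fold change 0.63, SE 0.06, adjusted p = 4.67e-07). The common LC3 gene MAP1LC3B did not pass, with 71.7, 78.1 and 75.1 CPM with the VHL hairpin and 78.7, 71.1 and 72.7 CPM with both (log2 fold change -0.02, SE 0.07, adjusted p = 0.872). SQSTM1, the cargo receptor p62, was the one gene of the list that fell (log2 fold change -0.26, SE 0.07, adjusted p = 0.00969). CTSS, which breaks down proteins in lysosomes, rose by 0.56 on the log2 scale (adjusted p = 3.29e-05). MITF, a transcription factor of lysosomal genes, fell (log2 fold change -0.79, SE 0.07, adjusted p = 2.32e-07).

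Cell death genes passed about as often as all genes did. In the BCL2 family, which sets the threshold of mitochondrial cell death, 5 of 18 rose and 3 fell, 44.4% in all beside 42.6% of all genes. The genes that rose were BNIP3, BNIP3L and the death-promoting BMF, BBC3 and BAX. Those that fell were BCL2, BCL2L1 and BAK1, of which BAK1 is also death-promoting. BMF stood at 5.73, 6.77 and 5.79 CPM with the VHL hairpin and 20.3, 24.1 and 21.4 CPM with both (log2 fold change 1.84, SE 0.11, adjusted p = 3.71e-09). BBC3, the p53-induced PUMA, stood at 3.64, 3.76 and 3.83 CPM with the VHL hairpin and 7.06, 9.36 and 8.23 CPM with both (log2 fold change 1.13, SE 0.15, adjusted p = 1.58e-05). The protective BCL2L1 fell from 483, 428 and 452 CPM to 322, 359 and 352 CPM (log2 fold change -0.40, SE 0.07, adjusted p = 0.000148). BCL2 fell too, on few counts, 98 in all with the VHL hairpin and 43 with both (log2 fold change -1.0, SE 0.27, adjusted p = 0.00738). Within library set B the BCL2 value was -0.54 and did not pass (adjusted p = 0.280). Of 32 p53 targets 16 rose and 2 fell (median 0.21): TP53INP1 (log2 fold change 1.26, SE 0.13, adjusted p = 1.69e-06), BTG2 (log2 fold change 1.10, SE 0.09, adjusted p = 1.26e-07) and the cell cycle inhibitor CDKN1A (log2 fold change 0.76, SE 0.08, adjusted p = 1.74e-06) were among those that rose, while MDM2, the p53 ligase, did not pass (log2 fold change -0.19, SE 0.11, adjusted p = 0.177). MDM2 passed without shVHL61-KIM1A1 sample 1 (log2 fold change -0.35, adjusted p = 0.0107). Within set A its value was -0.25. Endoplasmic reticulum chaperones and folding enzymes rose in 18 of 32 cases and fell in 2, with HSPA5, the main chaperone BiP, at 1348, 1427 and 1426 CPM with the VHL hairpin and 2026, 1962 and 2073 CPM with both (log2 fold change 0.53, SE 0.05, adjusted p = 3.82e-07). Of 33 ATF4 targets of amino acid stress 14 rose and 5 fell. ASNS, asparagine synthetase, rose from 39.5, 41.9 and 42.9 CPM to 85.8, 83.2 and 90.5 CPM (log2 fold change 1.06, SE 0.07, adjusted p = 8.22e-09), but ATF5 fell (log2 fold change -1.12, SE 0.11, adjusted p = 1.48e-06) and TRIB3 did not pass (log2 fold change -0.05, SE 0.06, adjusted p = 0.57).

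**Figure D3:**
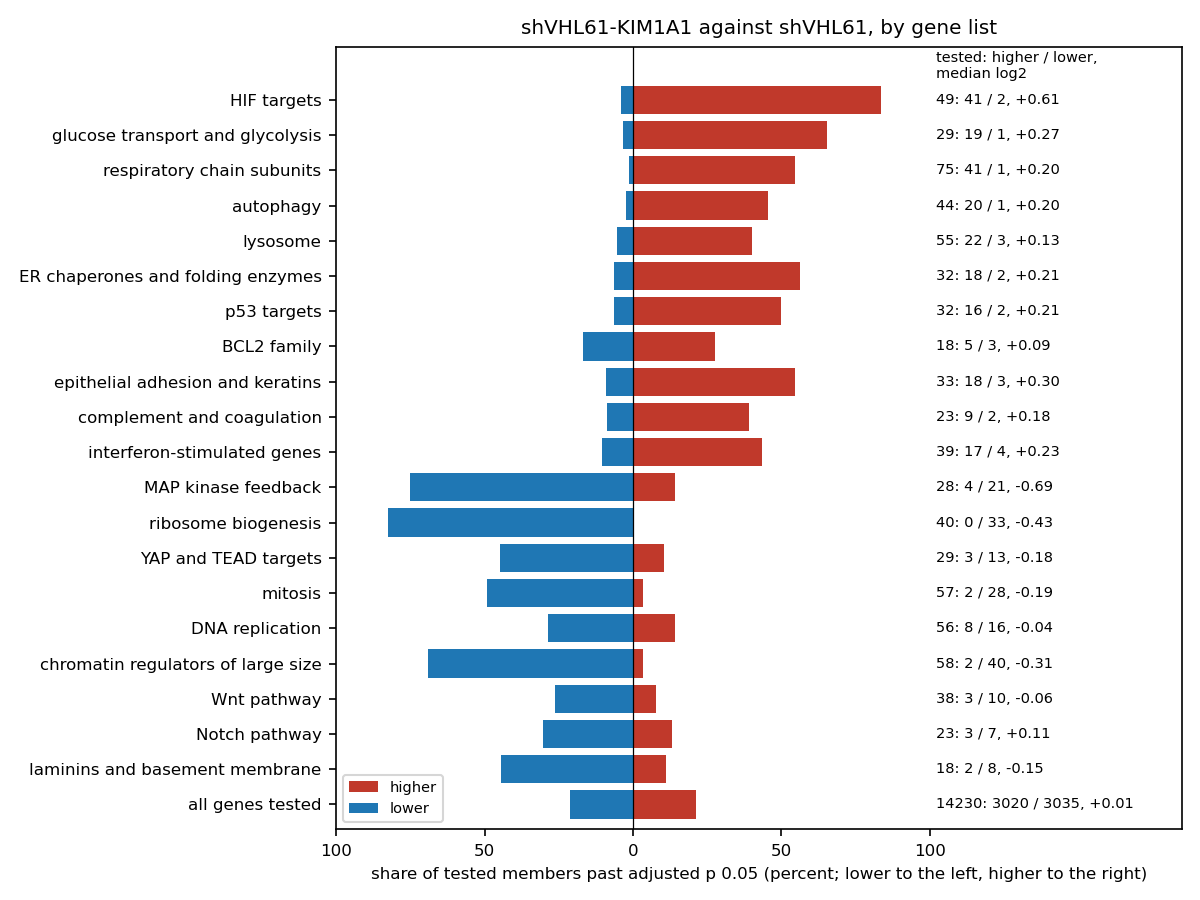
Share of the tested members of selected gene lists that passed an adjusted p of 0.05, higher to the right and lower to the left, in percent. The counts and the median log2 fold change stand beside each bar. The lists are a selection from 67, and those left out include lists with equal numbers of rises and falls. All tested genes at the foot stand at 21.2% and 21.3%, MAP kinase feedback genes at 75% lower and ribosome biogenesis genes at 82.5% lower.

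Most listed genes tied to growth factor signalling through the MAP kinases ERK1 and ERK2 fell. Many of these genes are induced by the pathway. They include phosphatases (DUSP) and inhibitors of Ras activation (SPRY, SPRED), many of which damp signalling, and ETS transcription factors of its output (ETV). The list also holds the receptor adaptor SHC2, so not every member reports on the output of the pathway. Of 28 such genes 21 fell and 4 rose, with a median log2 fold change of -0.69. In 20 of the 28 the mean with both hairpins was the lowest of the 4 groups, which held for 31.3% of all genes.

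DUSP6, the cytosolic phosphatase of ERK, stood at 81.5, 81.3 and 81.2 CPM with the VHL hairpin and 30.2, 28.9 and 29.1 CPM with both (log2 fold change -1.47, SE 0.06, adjusted p = 1.29e-10). Its SD within a group was at most 0.715 CPM beside a gap of 51.9 CPM between the means. SPRY4 stood at 19.3, 18.3 and 19.4 CPM with the VHL hairpin and 7.41, 6.83 and 7.7 CPM with both (log2 fold change -1.37, SE 0.09, adjusted p = 7.49e-09). SPRY2 stood at 56.2, 51.7 and 52.7 CPM with the VHL hairpin and 25.6, 24.4 and 24.6 CPM with both (log2 fold change -1.11, SE 0.07, adjusted p = 1.13e-08). ETV1, ETV4 and ETV5 fell 2.62-fold, 1.99-fold and 1.73-fold (adjusted p = 5.04e-09, 3.79e-08 and 3.25e-07). PHLDA1 stood at 184, 177 and 174 CPM with the VHL hairpin and 73.3, 75.1 and 69.1 CPM with both (log2 fold change -1.30, SE 0.06, adjusted p = 5.62e-10). CCND1, the cyclin that growth factors induce to start the cell cycle, stood at 211, 196 and 205 CPM with the VHL hairpin and 122, 119 and 115 CPM with both (log2 fold change -0.78, SE 0.06, adjusted p = 3.66e-08). SHC3, an adaptor of receptor tyrosine kinases, stood at 4.13, 5.47 and 4.5 CPM with the VHL hairpin and 0.517, 0.554 and 0.584 CPM with both, an 8.42-fold fall (log2 fold change -3.07, SE 0.22, adjusted p = 4.24e-08).

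The 4 that rose were DUSP1, DUSP8, SHC2 and DUSP4. DUSP8 no longer passed without shVHL61 sample 2 or 3 (adjusted p = 0.116 and 0.198) or shVHL61-KIM1A1 sample 2 or 3 (adjusted p = 0.0554 and 0.233). DUSP4, a nuclear phosphatase of ERK, stood at 0.0486, 0.15 and 0.103 CPM with the VHL hairpin and 1.03, 0.616 and 1.06 CPM with both (log2 fold change 3.10, SE 0.49, adjusted p = 0.000113), on 6 counts in all against 48. Its mean in Luc976 was 0.73 CPM, so that the level with both hairpins was near that in Luc976. The immediate early gene EGR1, also an ERK target, rose as well (log2 fold change 0.81, SE 0.09, adjusted p = 6.41e-06), whereas FOSL1 fell (log2 fold change -0.43, SE 0.06, adjusted p = 4.02e-05).

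Among receptors upstream of that pathway, those for fibroblast growth factors moved in opposite directions. FGFR1, the fibroblast growth factor receptor common in mesenchyme, stood at 276, 252 and 255 CPM with the VHL hairpin and 142, 149.7 and 146 CPM with both (log2 fold change -0.84, SE 0.06, adjusted p = 2.94e-08). FGFR2, the receptor common in epithelia, stood at 21.1, 20.2 and 22.1 CPM with the VHL hairpin and 52.7, 53.5 and 52.4 CPM with both (log2 fold change 1.32, SE 0.08, adjusted p = 1.07e-08). For both genes the 3 samples with both hairpins lay apart from the other 9. The means of the other groups ran from 253 to 267 CPM for FGFR1 and from 21.2 to 25.8 CPM for FGFR2. The ligand FGF5 fell from 1.21, 1.86 and 1.14 CPM to 0.402, 0.308 and 0.212 CPM (log2 fold change -2.18, SE 0.38, adjusted p = 0.000247). EGFR fell slightly (log2 fold change -0.29, SE 0.07, adjusted p = 0.00283), but within library set B it did not pass (-0.16, adjusted p = 0.0816). Of all 28 FGF, PDGF, VEGF and IGF ligands and receptors 8 rose and 12 fell; 7 fell within library set B.

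Ribosome biogenesis, the nucleolar assembly of ribosomes, takes up much of the effort of a growing cell, and the mRNA of most of its genes was lower. Of 40 of its genes 33 fell and 0 rose (median -0.43); the 7 that did not pass had values from -0.15 to 0.09. NOLC1, a nucleolar chaperone of small RNA-protein particles, stood at 601, 609.8 and 614 CPM with the VHL hairpin and 393, 403 and 380.4 CPM with both (log2 fold change -0.63, SE 0.05, adjusted p = 3.46e-08). RRS1, needed for the large subunit, stood at 83.2, 72.5 and 74.8 CPM with the VHL hairpin and 37.7, 43.8 and 39.5 CPM with both (log2 fold change -0.93, SE 0.09, adjusted p = 5.36e-07). RRP9, which binds the U3 RNA, stood at 49.5, 47.5 and 48.2 CPM with the VHL hairpin and 26.5, 31.3 and 29.1 CPM with both (log2 fold change -0.74, SE 0.08, adjusted p = 2.64e-06). POLR1A, the largest subunit of RNA polymerase I, fell 1.58-fold (log2 fold change -0.66, SE 0.07, adjusted p = 2.19e-06). NCL, nucleolin, stood at 1817, 1932 and 1888 CPM with the VHL hairpin and 1417, 1389.7 and 1383 CPM with both (log2 fold change -0.43, SE 0.05, adjusted p = 3.67e-06). MYC, which drives these genes, was lower by less (log2 fold change -0.31, SE 0.06, adjusted p = 0.000643).

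Genes of the ribosomal proteins themselves gave no stable direction. Of 79 cytosolic ribosomal protein genes 28 rose and 2 fell. Their median was 0.13, with 0.18 in library set A, 0.01 in set B and -0.06 with the length trend removed, so its sign depended on the scaling. The counts were 4 higher and 21 lower with the length trend removed, and 48 higher and 1 lower within set A against 14 and 17 within set B. Without shVHL61-KIM1A1 sample 1 the count of rises was 45 and without sample 3 it was 17. Of 57 mitosis genes 28 fell and 2 rose (median -0.19). MKI67, the proliferation marker Ki-67, stood at 824, 854 and 884 CPM with the VHL hairpin and 620.4, 586 and 548 CPM with both (log2 fold change -0.55, SE 0.05, adjusted p = 1.06e-06). The mitotic kinase gene PLK1 stood at 143, 132 and 131 CPM with the VHL hairpin and 92.2, 106 and 109 CPM with both (log2 fold change -0.40, SE 0.07, adjusted p = 0.000364). For DNA replication genes the counts were 16 lower and 8 higher of 56, with a median of -0.04; 5 rose without shVHL61 sample 3.

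Genes of the extracellular matrix moved in both directions. Of 23 proteoglycan genes 8 rose and 6 fell (median 0.03), and of 25 matricellular and glycoprotein genes 10 rose and 7 fell (median 0.12). Some of the falls were deep. DCN, decorin, a small proteoglycan that binds collagen and growth factors, stood at 3.84, 3.11 and 3.62 CPM with the VHL hairpin and 0.0574, 0.123 and 0.106 CPM with both (log2 fold change -5.12, SE 0.31, adjusted p = 5.04e-09). Over the 3 samples that is 211 counts against 5, a ratio of 37 (exact 95% interval 15.6 to 115) by counting error alone. GPC4, a glypican that presents growth factors at the cell surface, stood at 3.35, 2.96 and 3.47 CPM with the VHL hairpin and 0.115, 0.246 and 0.318 CPM with both (log2 fold change -3.80, SE 0.24, adjusted p = 1.07e-08), on 195 counts against 12. Both were also lower with the VHL hairpin alone than in Luc976, where they averaged 6.6 and 11.1 CPM. In the opposite direction, the collagen-binding FMOD, fibromodulin, rose from 1.12, 1.05 and 1.34 CPM to 4.94, 6.59 and 5.79 CPM (log2 fold change 2.29, SE 0.18, adjusted p = 7.77e-08).

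Components of elastic fibres split. FBN1, fibrillin-1, the scaffold of microfibrils, stood at 19.9, 20.2 and 21.5 CPM with the VHL hairpin and 2.87, 4.12 and 2.65 CPM with both (log2 fold change -2.68, SE 0.12, adjusted p = 5.01e-10). FBN2 stood at 65.4, 68.3 and 64.7 CPM with the VHL hairpin and 24.4, 23.7 and 22.8 CPM with both (log2 fold change -1.48, SE 0.06, adjusted p = 1.29e-10). FBLN2, fibulin-2, stood at 10.7, 10.6 and 8.59 CPM with the VHL hairpin and 0.746, 1.29 and 1.11 CPM with both (log2 fold change -3.24, SE 0.18, adjusted p = 3.16e-09). Against these, ADAMTSL4, which binds microfibrils, rose from 20.2, 17.9 and 17.7 CPM to 45.2, 44.5 and 46 CPM (log2 fold change 1.28, SE 0.08, adjusted p = 6.31e-09), and LOX, the cross-linking enzyme and a HIF target, rose 1.49-fold (log2 fold change 0.58, SE 0.08, adjusted p = 4.08e-05). In all 7 of 22 elastic fibre genes fell and 8 rose, or 5 rose without shVHL61 sample 3. LAMA1, a laminin chain of the embryonic and tubular basement membrane, stood at 55.7, 54.2 and 55.8 CPM with the VHL hairpin and 19.2, 21.4 and 17.6 CPM with both (log2 fold change -1.51, SE 0.08, adjusted p = 1.12e-09). Among 18 basement membrane genes 8 fell and 2 rose; 5 fell without shVHL61 sample 1, and with the length trend removed 4 fell and 4 rose. COL5A1, a fibril-starting collagen, fell 3.59-fold (log2 fold change -1.85, SE 0.16, adjusted p = 3.59e-07) and COL1A1 rose by little (log2 fold change 0.31, SE 0.10, adjusted p = 0.0155). COL1A1 no longer passed without shVHL61 sample 2 (adjusted p = 0.0854) or shVHL61-KIM1A1 sample 3 (adjusted p = 0.0790). FN1, fibronectin, had the largest fall in CPM of any gene tested, from 13936, 13996 and 14400.5 CPM to 11261, 10009 and 10307 CPM (log2 fold change -0.42, SE 0.05, adjusted p = 2.45e-06). SPP1, osteopontin, a secreted protein of injured tubules, stood at 2225, 2431 and 2365 CPM with the VHL hairpin and 1680.2, 1749 and 1788 CPM with both (log2 fold change -0.43, SE 0.05, adjusted p = 5.82e-06).

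Markers of fibroblasts and smooth muscle were measured beside the matrix genes: the 14 genes summed to 144 to 167 CPM with the VHL hairpin and 177 to 191 CPM with both. COL1A2, COL3A1, PDGFRA, FAP and POSTN were each at or near 0, and LUM made up most of the sum. Endothelial markers summed to 75.8 to 85.7 CPM with the VHL hairpin and 62.4 to 81.9 CPM with both, with KDR, EMCN and CLDN5 at 0 counts. That sum holds opposite moves: ENG stood at 39.2, 36.7 and 39.8 CPM with the VHL hairpin and 16, 19.5 and 17.5 CPM with both (log2 fold change -1.13, SE 0.10, adjusted p = 2.66e-07). EGFL7 stood at 42.9, 36.2 and 39.7 CPM with the VHL hairpin and 41.5, 56.9 and 56.7 CPM with both, with overlapping groups (log2 fold change 0.38, SE 0.11, adjusted p = 0.0111). EGFL7 no longer passed without shVHL61 sample 2 (adjusted p = 0.0547), without shVHL61-KIM1A1 sample 2 or 3 (adjusted p = 0.0610 and 0.0645) or within set B (0.13, adjusted p = 0.228). CDH5 stood at 0.486, 0.502 and 1.19 CPM with the VHL hairpin and 2.58, 2.77 and 2.18 CPM with both (log2 fold change 1.79, SE 0.33, adjusted p = 0.000404). Immune markers summed to 138 to 148 CPM with the VHL hairpin and 155 to 171 CPM with both, with CD3D and CD3E at 0 counts. Whether these levels play a part in the matrix values was not tested.

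Epithelial adhesion genes rose more often than they fell. Of 33 such genes 18 rose, 3 fell and 12 did not pass (median 0.30). Tight junction genes did not share this: of 25 tested, 6 rose and 10 fell. CDH3, P-cadherin, stood at 39.8, 40.5 and 38.3 CPM with the VHL hairpin and 115, 115 and 123 CPM with both (log2 fold change 1.57, SE 0.06, adjusted p = 1.29e-10). CDH1, E-cadherin, the defining adhesion protein of epithelia, stood at 5.2, 5.77 and 4.5 CPM with the VHL hairpin and 12.6, 11.5 and 10.9 CPM with both (log2 fold change 1.18, SE 0.12, adjusted p = 1.81e-06). EPCAM stood at 58.2, 62.9 and 63.3 CPM with the VHL hairpin and 114, 113 and 115 CPM with both (log2 fold change 0.89, SE 0.08, adjusted p = 3.82e-07). MAL, a carrier to the apical membrane, stood at 17.1, 13.5 and 15.1 CPM with the VHL hairpin and 52.3, 52.7 and 52.5 CPM with both (log2 fold change 1.78, SE 0.09, adjusted p = 8.70e-10). CD24, a surface glycoprotein of tubular progenitor and injured cells, rose from 299.9, 328 and 306 CPM to 849, 764 and 822 CPM (log2 fold change 1.38, SE 0.07, adjusted p = 5.70e-10). The keratin gene KRT18 fell (log2 fold change -0.32, SE 0.07, adjusted p = 0.00212) and KRT8 did not pass (log2 fold change -0.03, SE 0.09, adjusted p = 0.791). With library set as a term the KRT8 value was -0.11, and within set B it was -0.18. Of 24 mesenchymal genes 4 rose, 9 fell and 11 did not pass. VIM, vimentin, fell slightly (log2 fold change -0.29, SE 0.05, adjusted p = 0.000223). ZEB1, a repressor of CDH1, fell as well (log2 fold change -0.47, SE 0.09, adjusted p = 0.000875). CDH2, N-cadherin, rose slightly (log2 fold change 0.18, SE 0.06, adjusted p = 0.0199). CDH2 no longer passed without sample 1 of shVHL61 (adjusted p = 0.0621) or of shVHL61-KIM1A1 (adjusted p = 0.0993). Markers of squamous epithelium summed to 72.8 to 81.3 CPM with the VHL hairpin and 95.1 to 117 CPM with both; KRT5 and KRT14 were at 0 counts and SFN was most of the sum. The part of these genes in the adhesion values was not tested.

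Markers of the proximal tubule and regulators of kidney lineage changed unevenly. Of 18 proximal tubule markers 9 had enough counts, 1 rose and 3 fell. The 18 markers summed to 252 to 270 CPM with the VHL hairpin and 294 to 319 CPM with both. LRP2, SLC22A6 and SLC22A8, which define the mature segment, were at 0 counts in all 4 groups, so part of the defining markers of the labelled cell type was absent. PDZK1, a brush border scaffold, stood at 62.7, 71.9 and 71.3 CPM with the VHL hairpin and 136, 128 and 130.5 CPM with both (log2 fold change 0.94, SE 0.07, adjusted p = 9.32e-08). The brush border peptidases MME and ANPEP instead fell (log2 fold change -0.78 and -1.94, adjusted p = 0.000473 and 0.000262). ANPEP rested on few counts, 80 in all with the VHL hairpin and 18 with both. GGT1 did not pass (log2 fold change -0.07, SE 0.09, adjusted p = 0.597). Its value was -0.15 with library set as a term and -0.15 within set B. SALL1, a nephron progenitor factor, stood at 225, 211 and 214 CPM with the VHL hairpin and 117, 113 and 111 CPM with both (log2 fold change -0.93, SE 0.06, adjusted p = 5.01e-09). SOX9, which marks repairing tubule cells, stood at 11.6, 9.83 and 9.73 CPM with the VHL hairpin and 4.19, 4.12 and 5.04 CPM with both (log2 fold change -1.21, SE 0.13, adjusted p = 2.93e-06). PAX8, which defines kidney epithelium, did not pass (log2 fold change -0.06, SE 0.06, adjusted p = 0.497). With library set as a term in the fit the PAX8 value was -0.10. Of 26 lineage factors 7 fell and 5 rose. The rises numbered 2 or 3 without shVHL61 sample 2 or 3 or shVHL61-KIM1A1 sample 1 or 3.

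KIM-1 takes up dead cells and lipids, and other genes of these tasks moved in both directions. Of 30 dead-cell uptake genes 10 fell, HAVCR1 included, and 4 rose. MERTK, a receptor tyrosine kinase that engulfs dying cells, stood at 54.8, 58.8 and 58.1 CPM with the VHL hairpin and 30.4, 29 and 29.8 CPM with both (log2 fold change -0.95, SE 0.08, adjusted p = 1.09e-07). The integrin subunit gene ITGB5 fell 1.54-fold (log2 fold change -0.62, SE 0.08, adjusted p = 8.93e-06) and the scavenger receptor gene SCARF1 1.49-fold (log2 fold change -0.57, SE 0.09, adjusted p = 0.000139). ABCA7, a lipid transporter that aids engulfment, rose (log2 fold change 0.68, SE 0.10, adjusted p = 4.44e-05). Of 31 genes of lipid uptake, efflux and storage 11 fell and 7 rose, or 4 rose without shVHL61-KIM1A1 sample 3. APOE, the apolipoprotein of lipid export, stood at 35.6, 31 and 31.2 CPM with the VHL hairpin and 6.89, 6.59 and 8.55 CPM with both (log2 fold change -2.15, SE 0.11, adjusted p = 1.71e-09). HILPDA, a HIF target that protects lipid droplets, rose (log2 fold change 0.89, SE 0.09, adjusted p = 1.20e-06). ABCB1, the drug efflux pump P-glycoprotein, fell from 7.09, 7.92 and 7.76 CPM to 1.61, 0.985 and 1.06 CPM (log2 fold change -2.63, SE 0.15, adjusted p = 3.67e-09).

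Secreted defence and inflammatory genes rose more often than they fell. DEFB1, the antimicrobial beta-defensin of the urinary tract, stood at 3.74, 4.61 and 4.5 CPM with the VHL hairpin and 17.2, 19.1 and 21.7 CPM with both (log2 fold change 2.18, SE 0.11, adjusted p = 1.57e-09). The acute-phase gene SAA2 rose 3.34-fold (log2 fold change 1.74, SE 0.13, adjusted p = 4.34e-08), although SAA1 and SAA2 are near-identical and reads may be split between them. LCN2, the tubular injury protein NGAL, stood at 3.4, 2.71 and 2.85 CPM with the VHL hairpin and 6.37, 7.26 and 7.48 CPM with both (log2 fold change 1.23, SE 0.13, adjusted p = 2.85e-06). Of 23 complement and coagulation genes 9 rose and 2 fell, among them CFB, of the alternative pathway, which rose (log2 fold change 1.02, SE 0.11, adjusted p = 2.69e-06). Interferon-stimulated genes rose in 17 of 39 cases and fell in 4, with the largest rise in GBP2 (log2 fold change 1.46, SE 0.13, adjusted p = 3.30e-07). Without shVHL61-KIM1A1 sample 2, and within set B, 11 of the interferon-stimulated genes rose. CXCL8, the neutrophil attractant interleukin-8, stood at 89.9, 109 and 107 CPM with the VHL hairpin and 178, 171 and 169 CPM with both (log2 fold change 0.76, SE 0.08, adjusted p = 1.63e-06). IL6 rose (log2 fold change 0.36, SE 0.07, adjusted p = 0.000817), while STAT3 did not pass (log2 fold change 0.08, SE 0.05, adjusted p = 0.207) except with the length trend removed (0.15, adjusted p = 0.0326).

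Developmental signals changed gene by gene. INHBB, a subunit of activin and inhibin, stood at 13, 11.9 and 13.1 CPM with the VHL hairpin and 36.2, 39.3 and 39.9 CPM with both (log2 fold change 1.61, SE 0.12, adjusted p = 3.75e-08). FSTL3, which binds activins, rose too (log2 fold change 0.65, SE 0.07, adjusted p = 4.63e-06). ID3 rose 5.1-fold (log2 fold change 2.35, SE 0.20, adjusted p = 2.42e-07) and ID2 fell 2.22-fold (log2 fold change -1.15, SE 0.08, adjusted p = 1.22e-08); both are inhibitors of helix-loop-helix factors that bone morphogenetic proteins induce. AXIN2, a feedback target of Wnt, stood at 4.57, 3.66 and 3.57 CPM with the VHL hairpin and 0.861, 1.23 and 1.38 CPM with both (log2 fold change -1.76, SE 0.20, adjusted p = 5.23e-06), and the ligand WNT5A fell from 4.28, 5.02 and 4.35 CPM to 1.49, 1.23 and 1.33 CPM (log2 fold change -1.74, SE 0.16, adjusted p = 3.74e-07). The Notch ligand JAG1 stood at 12.4, 12.3 and 13.7 CPM with the VHL hairpin and 6.37, 6.4 and 5.47 CPM with both (log2 fold change -1.08, SE 0.12, adjusted p = 2.50e-06). The Notch target HES1 stood at 9.28, 9.68 and 6.41 CPM with the VHL hairpin and 2.53, 3.08 and 3.87 CPM with both (log2 fold change -1.41, SE 0.21, adjusted p = 5.92e-05). Of 29 YAP and TEAD genes 13 fell and 3 rose.

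Long genes were lower and short genes higher as a whole. Across 13507 genes with a length, the Spearman correlation of log2 fold change with effective length was -0.28, a description of genes that are not independent; it was -0.29 within library set A and -0.13 within set B. With genes cut into 5 classes of equal size by length, in the shortest class 876 genes rose and 246 fell, while in the longest class 291 rose and 1038 fell, with medians of 0.14 and -0.14. Large chromatin regulators fell in 40 of 58 cases (median -0.31), which became -0.10, with 25 lower, once the length trend was removed. Among them CREBBP and EP300, the acetyltransferases that HIF recruits, stood at 84.5, 74.6 and 77.2 CPM with the VHL hairpin and 51.8, 49.5 and 44.9 CPM with both (log2 fold change -0.69, SE 0.08, adjusted p = 2.89e-06) and at 113, 110.4 and 109.8 CPM with the VHL hairpin and 91.1, 76.3 and 66.7 CPM with both (log2 fold change -0.51, SE 0.09, adjusted p = 0.000197). The medians of HIF targets, MAP kinase feedback and ribosome biogenesis genes with the length trend removed were 0.65, -0.72 and -0.45.

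**Figure D4:**
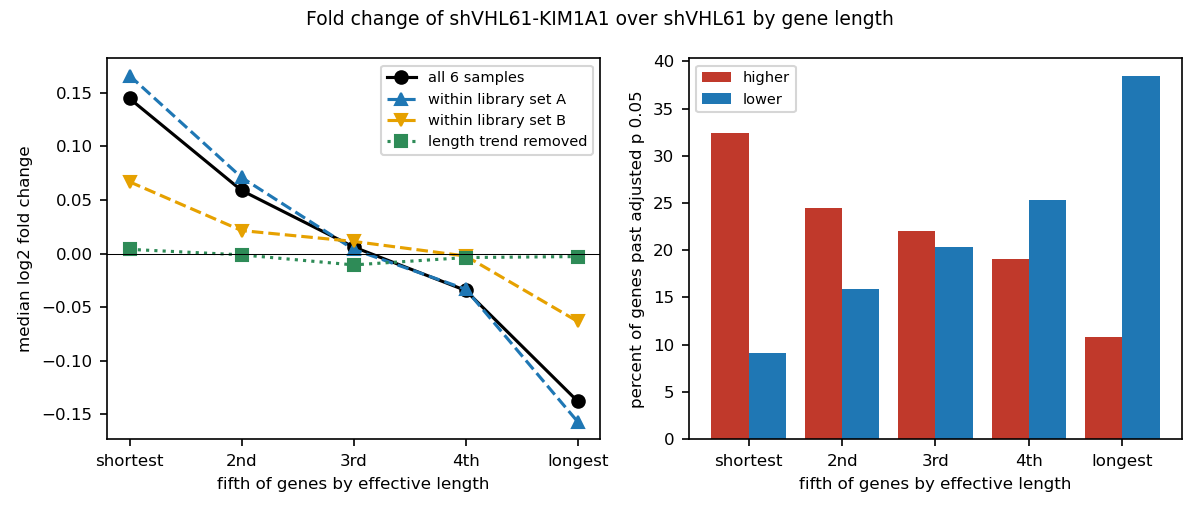
Left, median log2 fold change of both hairpins over the VHL hairpin alone in 5 classes of genes by effective length, over all 6 samples, within each library set and with the length trend removed. Right, percent of genes that passed in each direction; in the longest class 38.4% were lower and 10.8% higher.

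The same KIM-1 hairpin was also present without the VHL hairpin, in the shKIM-1 samples, which share no sample with the comparison above. Between these samples and Luc976, 4464 genes differed (31.4%), 2108 higher in shKIM-1 (14.8%) and 2356 lower (16.6%). HAVCR1 averaged 121 ± 10.8 CPM in Luc976 and 57 ± 4.45 CPM in shKIM-1 (SD, n = 3). Of the genes that rose with both hairpins 1001 also rose with the KIM-1 hairpin alone, which is 33.1% of the former and 47.5% of the latter. Of those that fell 1252 also fell alone, 41.3% and 53.1%. In the opposite direction were 186 genes higher with and lower without the VHL hairpin, and 152 lower with and higher without it.

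The gene groups described above had these values in the setting without the VHL hairpin. Ribosome biogenesis genes fell in 31 of 40 cases without the VHL hairpin, beside 33 with it. MAP kinase feedback genes fell in 16 of 28 cases without it, beside 21 with it. The medians of that group were -0.33 and -0.69. For HIF targets 25 rose and 6 fell without the VHL hairpin, with a median of 0.30 beside 0.61 with it. Complement and coagulation genes fell in 13 of 23 cases and rose in 4 without it, beside 2 and 9 with it.

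The difference between the 2 effects was tested directly by the interaction term, the log2 effect with the VHL hairpin minus that without it. Library sets were unevenly spread: Luc976 samples 1 and 3 and shKIM-1 sample 2 were in set A. This is opposite to the spread with the VHL hairpin, so a set difference adds up in the interaction. The Spearman correlation of log2 fold change with GC content was 0.04 with the VHL hairpin and -0.17 without it. The part of the sets in the interaction was not tested. It passed for 2811 genes (19.8%), 1457 positive (10.2%) and 1354 negative (9.52%). For HAVCR1 itself it was 0.31, SE 0.14 (adjusted p = 0.152), which did not pass. For HIF targets 29 of 49 were positive and 3 negative. For MAP kinase feedback genes 15 of 28 were negative and 4 positive. DUSP6 fell by more with the VHL hairpin, with an interaction of -0.96 (adjusted p = 8.20e-07). RRS1 had log2 fold changes of -0.93 with and -0.97 without it, and its interaction of 0.04, SE 0.12, did not pass (adjusted p = 0.867). Of all 40 ribosome biogenesis genes 8 had a negative and 0 a positive interaction. FBN1 averaged 52.2 ± 2.36 CPM in Luc976 and 56.8 ± 3.93 CPM in shKIM-1 (SD, n = 3), a difference that did not pass (log2 0.12, adjusted p = 0.284), beside -2.68 with the VHL hairpin, and its interaction was -2.80 (adjusted p = 8.64e-09). For FGFR1 the interaction was -0.77 (adjusted p = 1.01e-05) and for CDH1 1.5 (adjusted p = 1.95e-05).

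**Figure D5:**
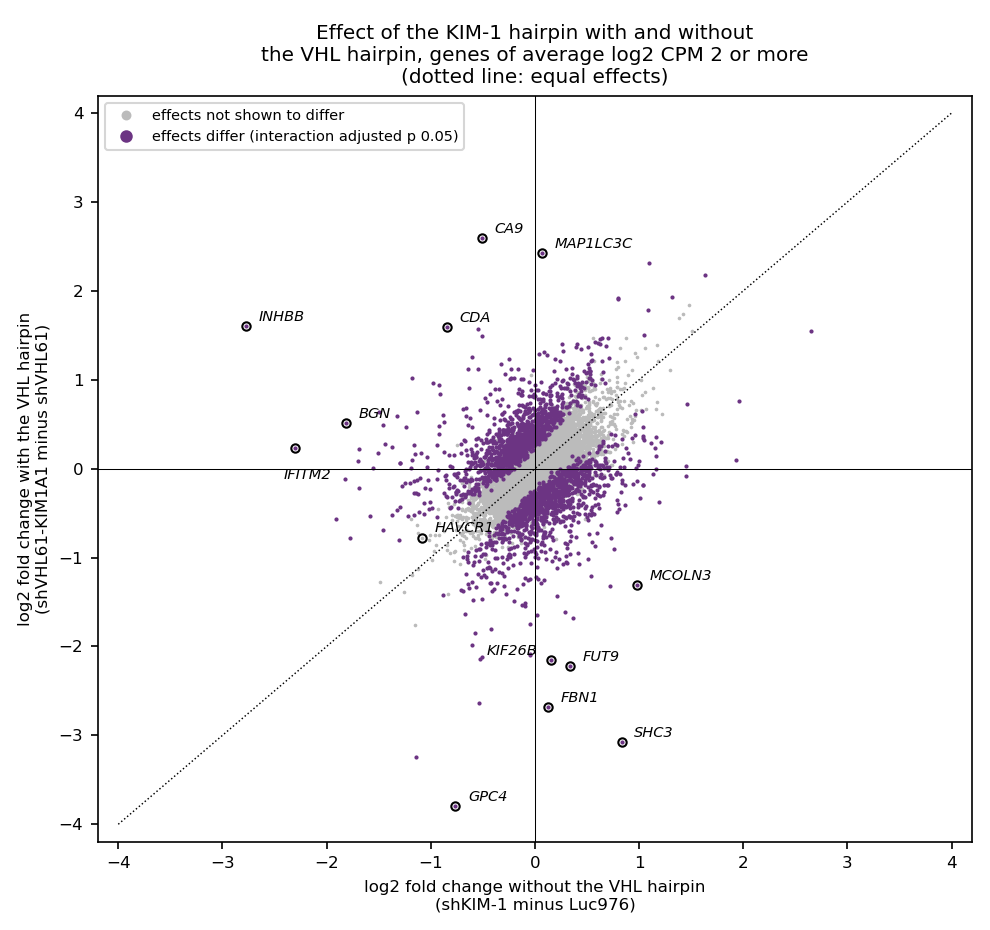
Log2 fold change of the KIM-1 hairpin with the VHL hairpin (vertical) against that without it (horizontal), for genes of average log2 CPM of 2 or more, with genes whose interaction passed in purple. On the dotted line the effects are equal; INHBB lies at -2.77 without and 1.61 with the VHL hairpin, and FBN1 at 0.12 and -2.68.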

How the data were processed

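RNA of HK-2 cells was extracted with Trizol and made into libraries with an Illumina TruSeq RNA kit, per the labels' protocols. The authors deposited expected counts (estimated reads per gene), TPM and FPKM for 12 samples in 1 table, per the file headers. Each TPM column was scaled by the authors within its sample. The deposited FPKM values were used only together with the expected counts, to work out the effective length of genes. The submitters' processing notes name Bowtie 0.12.2, mm8 and mm9, which are mouse builds, with no role. Not given in the sources used here are the human build, the quantifier and the strand setting. Overlapping and antisense genes therefore cannot be told apart.

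Expected counts were rounded to whole numbers. edgeR 4.0.16 (R 4.3.3) was fitted by quasi-likelihood with TMM scaling to all 12 samples in 4 groups (8 residual degrees of freedom), after edgeR's filter on low counts with a minimum of 10, with Benjamini-Hochberg adjustment over 14230 genes and a threshold of 0.05. The biological coefficient of variation was 6.81%. Depth was 16500939 to 21089708 counts per sample, and intervals on counts cover counting error only. Samples sharing a replicate number in the 2 groups had correlations of -0.17, -0.03 and -0.09 between their deviations from the group means, so the numbers were not taken as pairs. The scripts were tested on simulated data.

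The gene lists and the members shown were chosen with earlier results of these data known. Genes to name were drawn by rule. They were HAVCR1, VHL, CREBBP, EP300, HIF1A, EPAS1 and the 15 largest rises and falls in fold change among well expressed genes. Added to these were the 8 largest in CPM and genes on in 1 group and off in the other. The rule also took up to 6 members of each list by p and the 6 largest interactions each way. Not all genes drawn are named in the text. Other genes in the text were chosen after their values were seen. Alternatives were RLE scaling, no filter, DESeq2 1.42.0, 6 samples only, a replicate block, limma 3.58.1 on log2(TPM + 1) or log2(TPM + 0.1), removal of the gene length trend and leaving out each sample. Fits by library set were added after seeing the data. The sets came from the deviations of these same values, so such fits take up spread by construction. Their adjusted p-values and counts are no independent evidence. Promoter sequences came from RefSeq (GRCh38.p14), matched by symbol.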

Additional observations from a re-analysis of the deposited data

Results flagged for a closer look

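The effect of the KIM-1 hairpin differed between cells with and without the VHL hairpin for 2811 genes, by the interaction term of the edgeR quasi-likelihood model adjusted over all genes tested, and this test is what drew attention to the genes below. The 12 with the largest interaction among genes of average log2 CPM of 2 or more, 6 in each direction, are given with their group means (CPM, n = 3 each) in the order Luc976, shKIM-1, shVHL61 and shVHL61-KIM1A1.

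Positive interactions, in log2 units, were as follows. INHBB, an activin subunit, had 4.38 (adjusted p = 1.43e-08), with means of 5.21, 0.765, 12.6 and 38.5, so it was lower with the KIM-1 hairpin alone and higher in the presence of both. CA9, the carbonic anhydrase, had 3.10 (adjusted p = 4.36e-08), with means of 6.08, 4.26, 2.07 and 12.5. IFITM2, an interferon-induced membrane protein, had 2.54 (adjusted p = 1.43e-06), with means of 5.73, 1.15, 4.96 and 5.84; it has near-identical relatives, so its counts are uncertain. CDA, cytidine deaminase, had 2.43 (adjusted p = 1.43e-08), with means of 6.59, 3.65, 10.3 and 30.9. MAP1LC3C had 2.36 (adjusted p = 9.33e-05), with means of 1.25, 1.3, 2.24 and 12. BGN, the proteoglycan biglycan, had 2.33 (adjusted p = 4.24e-08), with means of 14.7, 4.18, 21.1 and 30.

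Negative interactions were found for the following genes. SHC3, the adaptor, had -3.91 (adjusted p = 9.45e-08), with means of 4.51, 8.09, 4.7 and 0.552. GPC4 had -3.03 (adjusted p = 2.76e-06), with means of 11.1, 6.51, 3.26 and 0.227. FBN1 had -2.80 (adjusted p = 8.64e-09), with means of 52.2, 56.8, 20.5 and 3.22. FUT9, a fucosyltransferase, had -2.56 (adjusted p = 7.48e-06), with means of 7.22, 9.15, 4.22 and 0.901. KIF26B, a kinesin family member, had -2.30 (adjusted p = 8.88e-08), with means of 14.9, 16.6, 11 and 2.47. MCOLN3, a lysosomal cation channel, had -2.29 (adjusted p = 1.47e-05), with means of 5.07, 9.98, 3.96 and 1.57.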

How the results depend on the processing

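Across scaling, filter, tool, unit, sample and library set alternatives, 5315 to 7851 genes passed in the comparison of both hairpins with the VHL hairpin alone, against 6055, and 4900 to 5744 passed when 1 sample was left out. By limma on TPM 40.0% of the calls were higher, against 49.9%; a pseudocount of 0.1 gave 5797 calls against 5747. Leaving out 1 sample gave 3324 to 5161 calls for the KIM-1 hairpin alone and 2005 to 3476 for the interaction. With library set as a term 7851 genes passed in the main comparison and 4764 for the interaction, against 6055 and 2811. The sets were drawn from the deviations of these same values, so a set term takes up spread by construction. The higher counts are therefore no added evidence. The replicate numbers do not pair the samples: with a replicate block 5528 genes passed in the main comparison, 3876 for the KIM-1 hairpin alone and 2241 for the interaction. The HIF target counts ranged from 39 to 41 higher and 2 to 3 lower without 1 sample, ribosome biogenesis from 32 to 33 lower, and MAP kinase feedback from 20 to 21 lower and 3 to 4 higher. HAVCR1 ranged from -0.92 to -0.67 and VHL from 0.10 to 0.18 without 1 sample.

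The correlation of fold change with gene length was -0.0219 with the length trend removed, by construction, -0.134 within library set B, and -0.352 to -0.219 without 1 sample. VHL passed with the length trend removed (0.18, adjusted p = 0.0372). Within set B its value was 0.21. Genes close to 0 changed sign without passing. These were EPAS1 (0.0443 with the length trend removed, 0.0270 within set B), HK2 (0.112 and 0.0184 likewise) and MDM2 (0.0296 within set B). They also included MAP1LC3B (0.0225 with library set as a term, 0.00513 and 0.0381 within sets A and B). Without 1 sample GGT1 ranged from -0.131 to 0.00209, KRT8 from -0.0890 to 0.0567 and MAP1LC3B from -0.0601 to 0.0148. Of 414 genes followed, 394 to 414 kept their direction and side of the threshold under each setting.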
